A study of Mus musculus with 12 samples.

Results

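The genes described here are 8 genes of cholesterol synthesis and its control: Hmgcs1, Idi1, Fdft1, Sqle, Lss, Cyp51, Dhcr7 and Insig1. They were chosen by name as the rows of the deposited count table that carry these mouse symbols, 8 of 78298 gene identifiers, and each symbol matched 1 identifier. All 8 passed the filter on low counts, which left 22190 genes. The first 7 encode enzymes of the pathway and Insig1 encodes its regulator. The 8 include no receptor of cholesterol uptake, and uptake genes are given from a separate list.

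RNA was sequenced from 12 mouse lung libraries in 4 groups of 3. Normal VEH and normal HDM were pieces of normal lung adjacent to tumours, and tumour VEH and tumour HDM were LLC tumours dissected from lung. HDM is house dust mite, to which the series text says the mice were exposed chronically, and VEH and LLC are not spelled out in the labels. No group is lung without a tumour beside it. The strain, sex, age, number of animals, and dose and time of exposure are not given in the sources used here. Nothing in the labels says whether replicates are separate animals, so p-values measure only the spread between these libraries. The replicate numbers 1, 2 and 3 used below are those of the sample titles.

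Cells make cholesterol from acetyl-CoA through mevalonate, isoprenoid diphosphates, squalene and lanosterol. The genes of this route share a control: when membrane sterol is low, SCAP carries the transcription factor SREBP2 from the endoplasmic reticulum to the Golgi, where it is cut and freed to enter the nucleus. Insig proteins hold SCAP back when sterol is high, and Insig1 is itself a target of SREBP. In lung, cholesterol is a component of surfactant, and alveolar macrophages take up and export surfactant lipid.

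Promoter sequences of 6 of the 8 genes were found in the RefSeq promoter table (build GRCm38.p6), which holds 250 bases before to 50 bases after each start site; Sqle and Fdft1 had no entry. All matched a single place in GRCm39 exactly. The 250 bases before the start site are shown for 3 genes, 5′ to 3′ on the gene's strand with GRCm39 coordinates: Hmgcs1, which had the highest level per length, Cyp51, which had the largest tumour rise under VEH, and Insig1, which was the single gene called under HDM. Capitals mark the sterol regulatory element searched for (TCACNCCAC) and the NF-Y box (CCAAT, or ATTGG where it lies on the other strand).
Hmgcs1, chr13:120151637-120151886, plus strand: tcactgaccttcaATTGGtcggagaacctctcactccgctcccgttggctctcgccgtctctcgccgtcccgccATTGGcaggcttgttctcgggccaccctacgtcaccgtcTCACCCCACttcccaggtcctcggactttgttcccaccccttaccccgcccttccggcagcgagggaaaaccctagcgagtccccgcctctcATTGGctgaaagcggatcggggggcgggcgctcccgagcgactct
Cyp51, chr5:4154698-4154947, minus strand: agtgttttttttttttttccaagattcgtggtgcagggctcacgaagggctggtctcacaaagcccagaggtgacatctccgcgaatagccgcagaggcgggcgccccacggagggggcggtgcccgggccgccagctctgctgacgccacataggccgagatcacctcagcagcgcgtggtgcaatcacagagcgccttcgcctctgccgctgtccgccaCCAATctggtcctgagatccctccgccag
Insig1, chr5:28276160-28276409, plus strand: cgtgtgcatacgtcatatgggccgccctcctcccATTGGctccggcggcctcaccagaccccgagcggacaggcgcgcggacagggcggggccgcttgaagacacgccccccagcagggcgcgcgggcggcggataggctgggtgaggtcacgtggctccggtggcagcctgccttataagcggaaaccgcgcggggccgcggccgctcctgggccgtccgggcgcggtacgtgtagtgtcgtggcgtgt
The sterol element as searched for was found in 1 of the 6 genes (1 of their 8 promoters), as TCACCCCAC with its first base at -137 of Hmgcs1. It was in 1.24% of all 32851 promoters of the same length in the table, and in 1.44% of the genes there. Other forms of the element were not searched for, so the other genes are not shown to lack one. CCAAT was found in 6 of 6 genes (6 of their 8 promoters), against 41.1% of all genes and 37.4% of all promoters. The Sp1 box GGGCGG was found in 6 of 6 genes (7 of 8 promoters), against 38.2% of all genes and 35.7% of all promoters. The E-box CACGTG was found in 2 of 6 genes, Insig1 and Dhcr7 (2 of 8 promoters), against 8.09% of all genes and 7.15% of all promoters. Both strands of the whole 300-base windows were searched and each motif was counted on its own, whether or not it overlapped another. Relative to the start of the gene in GENCODE M39, the RefSeq start site lay at -28 bases for Hmgcs1 (before it), 54 for Cyp51 and 95 for Insig1 (inside the gene). A match of letters is a description of the sequence and not evidence of binding.

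The libraries held between 20608682 counts, in replicate 3 of tumour VEH, and 32765364, in replicate 2 of normal VEH, of which the 8 genes took 0.035% to 0.0798%. A member's count in a library ranged from 298 (Idi1) to 4316 (Hmgcs1). Levels are given as CPM, a count relative to the TMM-adjusted total of its library, and levels between genes are compared only as CPM per kilobase of the deposited gene length. Lung markers separated the tissues: summed alveolar type 2 markers (8 genes) were at 16200 to 45900 CPM in normal and 128 to 8740 CPM in tumour libraries, and endothelial markers (5 genes) at 1030 to 2330 and 91.1 to 414 CPM. Proliferation markers (5 genes) were at 25 to 142 CPM in normal and 457 to 930 CPM in tumour libraries. Cardiac muscle markers (5 genes) summed to 15.5 to 398 CPM in normal and 0.364 to 10.6 CPM in tumour libraries, and adipocyte markers (5 genes) to 3.34 to 37 and 0 to 7.73 CPM. Tumour VEH replicate 2 stood apart from the other tumours, with airway markers at 19300 CPM against 3.52 to 6050 CPM in the other 5 and alveolar type 2 markers at 8740 CPM. Tumour HDM replicate 3 stood apart at the low end. Its airway markers were at 3.52 CPM against 450 to 19300 CPM in the other 5. Its alveolar type 2 markers were at 128 CPM against 2500 to 8740 CPM, and its proliferation markers were the highest, at 930 CPM. In bulk tissue, fewer cells of a type and less RNA per cell cannot be told apart.

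The names of the libraries start with 1 of 6 prefixes, each shared by a normal and a tumour library. For 2 prefixes the treatment labels of the joined libraries differ: tumour HDM replicate 2 shares its prefix with a normal library labelled VEH (replicate 2), and tumour VEH replicate 3 with one labelled HDM (replicate 3). The labels do not say that a prefix is an animal, and the treatment labels were used as given. Counts and calls of the tissue comparisons that move when these 4 libraries are left out, or when the prefix is a block in the fit, are given with those values.

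Per kilobase, the mean level over all 12 libraries was highest for Hmgcs1 (25.8 ± 7.85 CPM per kilobase, mean ± SD, n = 12), then Insig1 (22.7 ± 8.35), Fdft1 (19.4 ± 3.36), Cyp51 (15.8 ± 7.13) and Sqle (15.3 ± 6). Idi1 (6.01 ± 2.3), Dhcr7 (5.21 ± 1.24) and Lss (3.18 ± 0.889) were lower. Neighbours in this order differed by less than the larger of their SDs, apart from the steps from Sqle to Idi1 and from Dhcr7 to Lss. Even there the ranges met, at 9.75 to 29 for Sqle and 2.9 to 11.6 for Idi1, and at 2.89 to 7.4 for Dhcr7 and 1.79 to 4.3 for Lss. A level per kilobase depends on the deposited length, which was longest for Lss (10787 bases).

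**Figure D1:**
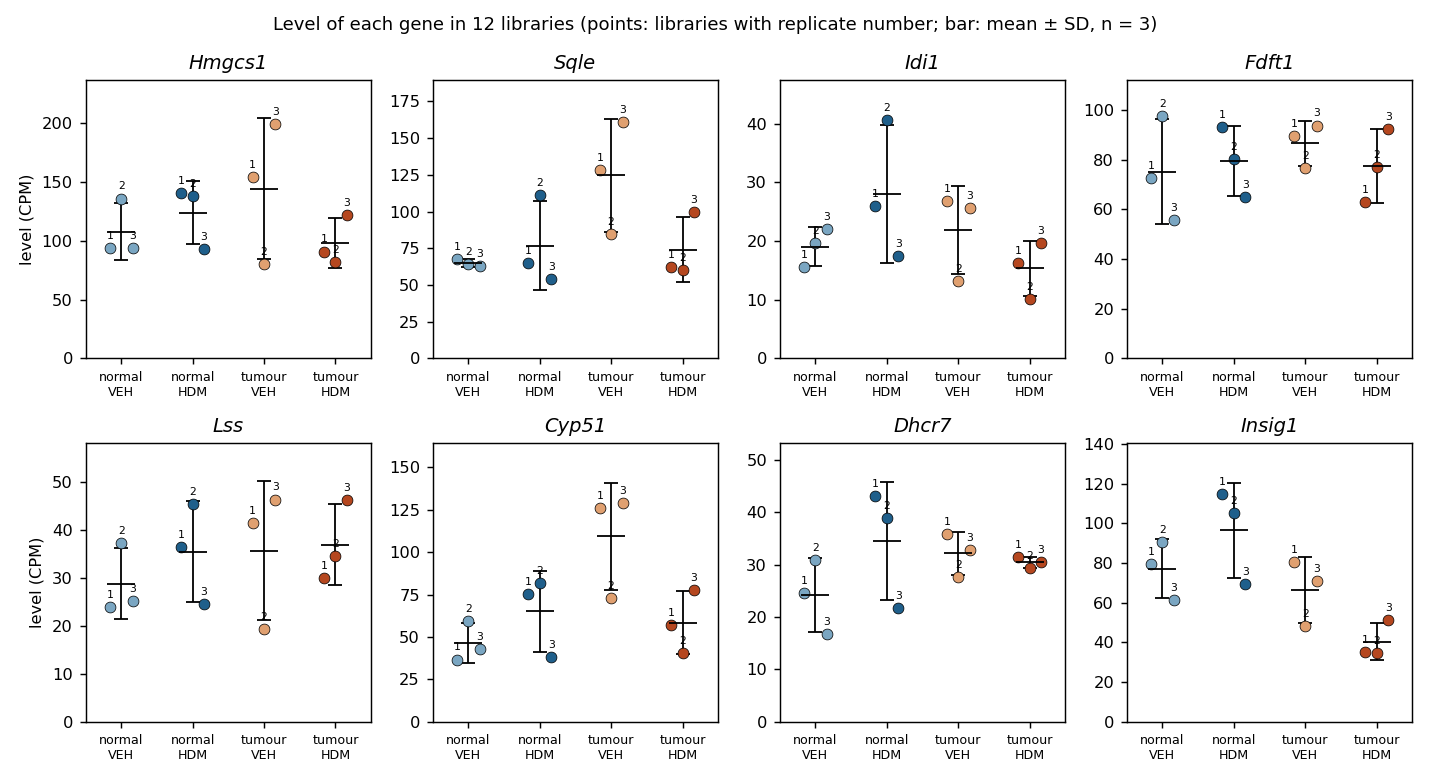
Level of each of the 8 genes in CPM (vertical axes, linear and starting at 0) in the 12 libraries, by group; points are libraries with their replicate number and bars are mean ± SD (n = 3). Sqle and Cyp51 were higher in all 3 tumour VEH libraries than in all 3 normal VEH libraries, and Insig1 was lower in all 3 tumour HDM libraries than in all 3 normal HDM libraries.

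The mevalonate part of the route was represented by Hmgcs1 and Idi1, and neither was called in any comparison. Hmgcs1, the cytosolic synthase that makes HMG-CoA (ENSMUSG00000093930, chr13:120151915-120170470 in GRCm39, plus strand), measured 94.1, 136 and 93.7 CPM in the normal VEH libraries (replicates 1 to 3, the order used throughout) and 141, 138 and 93 CPM in normal HDM. In tumours it was at 154, 80.4 and 199 CPM under VEH and 90.9, 81.6 and 122 CPM under HDM. All groups overlapped, and tumour VEH held both the lowest and the highest value of the 12. Its tumour-normal log2 fold change was 0.42 ± 0.31 (SE) under VEH and -0.34 ± 0.31 under HDM (edgeR quasi-likelihood test, adjusted p 0.291 and 0.385). Without tumour VEH replicate 2 the first became 0.71 and was called (adjusted p 0.0482).

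Idi1, the isomerase that interconverts the activated isoprene units (ENSMUSG00000058258, chr13:8935537-8942487, plus strand), was the least counted of the 8. It was at 15.5, 19.6 and 22 CPM in normal VEH, 25.9, 40.7 and 17.5 CPM in normal HDM, 26.8, 13.2 and 25.7 CPM in tumour VEH and 16.2, 10.2 and 19.6 CPM in tumour HDM. Normal HDM had the highest mean and tumour HDM the lowest, but these groups overlapped through normal HDM replicate 3. The tumour-normal log2 fold change under HDM was -0.87 ± 0.37 (edgeR adjusted p 0.0674). It was called without normal HDM replicate 3 (-1.01, adjusted p 0.0415), with the DESeq2 Wald test (-0.94, adjusted p 0.0329) and when every library had to hold 10 or more counts (-1.01, adjusted p 0.0325).

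The squalene steps were represented by Fdft1, Sqle and Lss, of which Sqle was called. Fdft1, squalene synthase (ENSMUSG00000021273, chr14:63382189-63417027, minus strand), was at 72.5, 97.6 and 55.7 CPM in normal VEH, 93.2, 80.4 and 65 CPM in normal HDM, 89.5, 76.6 and 93.8 CPM in tumour VEH and 62.9, 76.9 and 92.5 CPM in tumour HDM. All groups overlapped, its 4 group means lay between 75.3 and 86.6 CPM, and its log2 fold changes were 0.20 ± 0.22 under VEH and -0.04 ± 0.22 under HDM (edgeR adjusted p 0.479 and 0.897). The 95% intervals of these differences ran from -0.28 to 0.69 under VEH and from -0.52 to 0.45 under HDM.

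Sqle, the squalene epoxidase that starts the oxygen-dependent steps (ENSMUSG00000022351, chr15:59186869-59203043, plus strand), was at 67.8, 64.2 and 62.9 CPM in normal VEH, 65.1, 111 and 54.1 CPM in normal HDM, 128, 84.7 and 161 CPM in tumour VEH and 62, 60.3 and 99.6 CPM in tumour HDM. The 3 tumour VEH libraries lay above the 3 normal VEH libraries, which were close together (65 ± 2.53 CPM, mean ± SD, n = 3). Tumour VEH overlapped with tumour HDM and with normal HDM. Under VEH it rose 1.91-fold in tumour, a log2 fold change of 0.94 ± 0.31 (edgeR adjusted p 0.0338), and under HDM the change was -0.05 ± 0.30 (adjusted p 0.897).

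The call of Sqle under VEH rested on single libraries. It was kept without tumour VEH replicate 2 (1.15, edgeR adjusted p 0.0156) and lost without each other library of the comparison: normal VEH replicate 1 (0.97, adjusted p 0.0755), 2 (0.93, 0.0666) or 3 (0.91, 0.0893), and tumour VEH replicate 1 (1.02, 0.0529) or 3 (0.80, 0.0834). It was also lost without the 4 libraries of conflicting prefixes (0.80, adjusted p 0.112) and with the prefix as a block (0.82, adjusted p 0.129). The direction held in all 15 alternatives.

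Lss, the cyclase that makes lanosterol (ENSMUSG00000033105, chr10:76367298-76392976, plus strand), was at 23.9, 37.4 and 25.2 CPM in normal VEH, 36.5, 45.5 and 24.6 CPM in normal HDM, 41.5, 19.3 and 46.4 CPM in tumour VEH and 30.1, 34.6 and 46.3 CPM in tumour HDM. Every pair of groups overlapped. Tumour VEH spanned the widest range, with replicate 2 the lowest of all 12 libraries and replicate 3 the highest. Its log2 fold change was 0.31 ± 0.34 under VEH and 0.06 ± 0.34 under HDM (edgeR adjusted p 0.483 and 0.897), and the second was -0.01 with DESeq2 size factors.

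The steps after lanosterol were represented by Cyp51 and Dhcr7. Cyp51, the lanosterol demethylase (ENSMUSG00000001467, chr5:4123416-4154751, minus strand), was at 36.7, 59.7 and 42.9 CPM in normal VEH, 75.5, 81.7 and 37.9 CPM in normal HDM, 126, 73.1 and 129 CPM in tumour VEH and 56.8, 40.6 and 77.8 CPM in tumour HDM. Tumour VEH lay wholly above normal VEH. Through its replicate 2 it overlapped with tumour HDM and with normal HDM. Under VEH Cyp51 rose 2.36-fold in tumour, a log2 fold change of 1.24 ± 0.35 (edgeR adjusted p 0.0185), and under HDM the change was -0.16 ± 0.34 (adjusted p 0.726). The call under VEH was lost without normal VEH replicate 1 (1.09, adjusted p 0.0682), normal VEH replicate 3 (1.18, 0.061) or tumour VEH replicate 3 (1.18, 0.0501), and kept without the 4 libraries of conflicting prefixes (1.42, 0.0149).

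Dhcr7, the sterol reductase that forms cholesterol from its dehydro precursor (ENSMUSG00000058454, chr7:143376740-143402149, plus strand), was at 24.6, 30.9 and 16.8 CPM in normal VEH, 43, 38.9 and 21.7 CPM in normal HDM, 35.9, 27.7 and 32.8 CPM in tumour VEH and 31.5, 29.4 and 30.4 CPM in tumour HDM. The tumour HDM libraries were the closest together of any gene and group (highest over lowest 1.07) and lay inside the range of normal HDM. Its log2 fold change was 0.41 ± 0.27 under VEH and -0.18 ± 0.27 under HDM (edgeR adjusted p 0.232 and 0.593). The VEH value was called in 1 of 15 alternatives, with the prefix as a block (edgeR adjusted p 0.0359).

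Insig1, the protein that retains SCAP and SREBP in the endoplasmic reticulum (ENSMUSG00000045294, chr5:28276315-28283668, plus strand), was at 79.6, 90.5 and 61.2 CPM in normal VEH, 115, 105 and 69.6 CPM in normal HDM, 80.5, 48.2 and 71.1 CPM in tumour VEH and 35.3, 34.4 and 51.1 CPM in tumour HDM. Tumour HDM lay wholly below both normal groups, and overlapped with tumour VEH through tumour VEH replicate 2. Under HDM Insig1 was 2.4-fold lower in tumour, a log2 fold change of -1.26 ± 0.26 (edgeR adjusted p 0.00262), and under VEH the change was -0.21 ± 0.26 (adjusted p 0.526). The fall under HDM was called in all 15 alternatives, with log2 fold changes from -1.41 to -1.06, and was -1.26 (adjusted p 0.0191) without the 4 libraries of conflicting prefixes.

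Several of these genes share exon bases with a gene on the opposite strand, and whether the counting used the strand is not given in the sources used here, so their values carry that uncertainty. Fdft1 (25394 counts over the 12 libraries) shares 1184 bases with Ctsb, which had 457143 counts. Cyp51 (21714) shares 1253 bases with Akap9 (18966), Sqle (26506) shares 470 with Washc5 (21136), and Hmgcs1 (37154) shares 557 with Gm48342 (8413). The overlapping genes of Idi1 and Lss had at most 132 and 1228 counts, Insig1 shared no exon base with its opposite-strand neighbour, and Dhcr7 had no opposite-strand overlap. Of near-identical copies, the pseudogene Idi1-ps1 had 58 counts against 6590 for Idi1.

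The first comparison asked how tumour differed from adjacent lung under VEH. Of the 8 genes, 2 rose (Sqle and Cyp51) and 0 fell, where 18.2% of all 22190 genes rose, 20.6% fell and 38.9% were called in either direction (adjusted p below 0.05 over all genes, edgeR). The count of 2 in 8 was thus near the share over all genes. For both of these genes the libraries of the compared groups did not overlap, as for 23.9% of all genes in that direction. Log2 fold changes were positive for 7 of the 8 genes, all but Insig1, with a median of 0.36 against -0.11 over all genes, of which 46.4% were positive. Scaling by library size alone moved the median of all genes to 0.03 and that of the 8 genes to 0.49. Without the 4 libraries of conflicting prefixes 1 gene rose (Cyp51) and the median was 0.45. With the prefix as a block 2 rose, but these were Cyp51 and Dhcr7 instead of Sqle, and the median was 0.36. The number that rose ranged from 0 to 3 when each library was left out in turn (0 without normal VEH replicate 1 or 3 or without tumour VEH replicate 3, and 3 without tumour VEH replicate 2).

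Under HDM the same comparison had Insig1 as its only call among the 8, a fall, where 28.9% of all genes fell, 23% rose and 51.9% were called. The share of called members was below that over all genes, and no test of this difference was made. Its libraries did not overlap between the groups, as for 33.5% of all genes in that direction. The median log2 fold change of the 8 genes was -0.17, against -0.08 over all genes. Negative values were seen for 7 of 8 genes, but with scaling by library size alone the values of Sqle (0.14), Fdft1 (0.14), Cyp51 (0.04) and Dhcr7 (0.01) were positive and the median of all genes was 0.10. Apart from Idi1 and Insig1, the values lay between -0.34 and 0.06.

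Marker levels moved with both tissue comparisons. Under VEH, 5 of 5 endothelial markers fell, 1 of 8 alveolar type 2 markers fell and 5 of 5 proliferation markers rose. Under HDM 5 of 5 endothelial, 8 of 8 alveolar type 2 and 4 of 5 airway markers fell and 5 of 5 proliferation markers rose. Over all genes 18.2% rose and 20.6% fell under VEH, and 23% and 28.9% under HDM. All 8 alveolar type 2 values were negative under VEH as well, from -2.90 to -0.58 (median -2.15, against -3.92 under HDM). For 6 of these 8 the tumour VEH libraries lay wholly below normal VEH. Summed alveolar type 2 markers were at 24200 to 45900 CPM in normal HDM and 128 to 2750 CPM in tumour HDM, beside the fall of Insig1. Of the cardiac muscle markers 2 of 5 fell under VEH and 5 of 5 under HDM, and of the adipocyte markers 0 and 2 of 4 tested fell. Of 7 macrophage markers 2 rose and 2 fell under VEH, and 1 rose and 2 fell under HDM. Mitochondrial genes took 1.96% to 5.38% of counts in normal and 0.342% to 1.79% in tumour libraries, with no overlap between the tissues. Of the endothelial, alveolar type 2, airway and proliferation markers none was at 0 in every library of a group, and the part of these markers and of the mitochondrial share in the changes of the 8 genes was not tested.

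**Figure D2:**
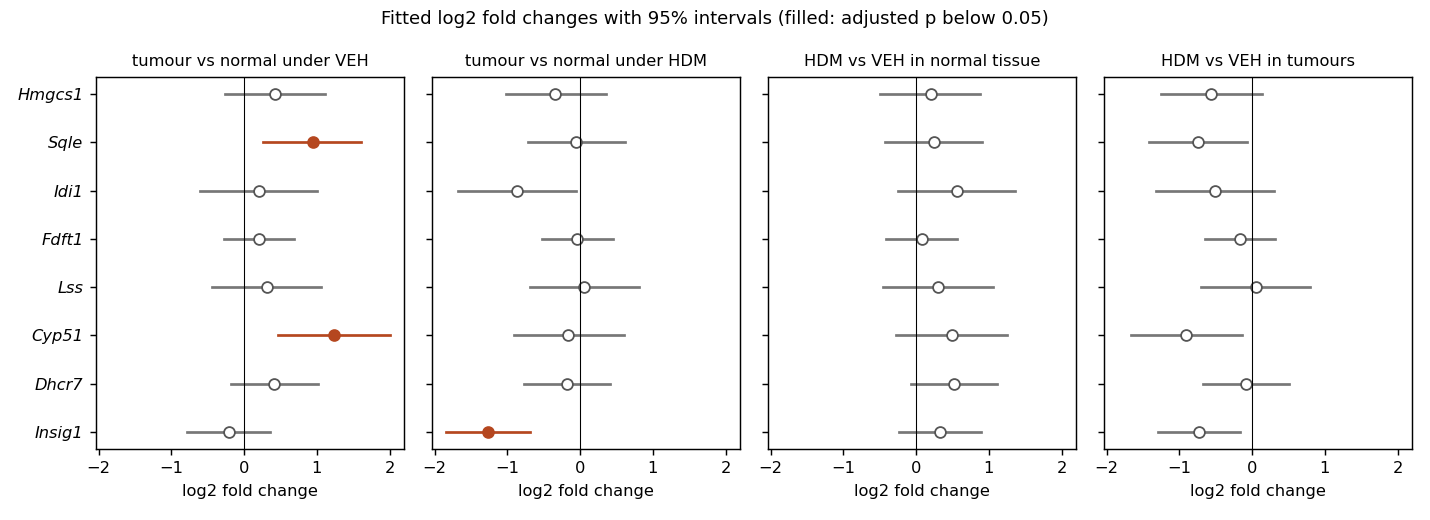
Fitted log2 fold change of each of the 8 genes (points) with its 95% interval (lines) in the 4 comparisons; filled points have an adjusted p below 0.05. Sqle (0.94) and Cyp51 (1.24) were called under VEH and Insig1 (-1.26) under HDM, and in the HDM against VEH panels most values were positive in normal tissue and negative in tumours (with library size scaling Dhcr7 in tumours was 0.01).

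HDM was then compared with VEH within each tissue. In normal lung 0 of the 8 genes were called by edgeR or by the DESeq2 Wald test, and 0 had an unadjusted p below 0.05, where 0% of all genes were called and 5.54% had such a p. All 8 log2 fold changes were positive, from 0.08 (Fdft1) to 0.56 (Idi1), with a median of 0.31 against -0.01 over all genes, of which 48.4% were positive. Libraries of the 2 groups overlapped for each of the 8 genes, whereas they did not overlap for 10.3% of all genes. The largest were Idi1 (0.56 ± 0.37), Dhcr7 (0.52 ± 0.27) and Cyp51 (0.49 ± 0.34), with adjusted p-values of at least 0.888 for all 8. Without the 4 libraries of conflicting prefixes the median was 0.70, again with 0 genes called, and with a block for the prefix it was -0.32, with 7 of 8 values negative. That block links HDM and VEH within a tissue only through the prefixes of conflicting labels, so its values rest on those labels.

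In tumours 0 of the 8 genes were called between HDM and VEH by edgeR or the DESeq2 Wald test, where 0.0946% of all genes were called. The 3 lowest p-values, not past the correction, were for Insig1 (-0.73 ± 0.26, unadjusted p 0.0171, edgeR adjusted p 0.226), Cyp51 (-0.91 ± 0.35, 0.0245 and 0.245) and Sqle (-0.75 ± 0.31, 0.0328 and 0.265), all lower under HDM. An unadjusted p below 0.05 with a lower level under HDM was thus seen in 3 of 8 genes and in 11.3% of all genes. Values were negative for 7 of 8 genes, all but Lss (0.05), with a median of -0.54 against -0.03 over all genes, and Dhcr7 (-0.08) was at 0.01 with scaling by library size alone. The groups overlapped for all 8 genes, while 22% of all genes showed no overlap. Without the 4 libraries of conflicting prefixes the median was -0.15, and with the prefix as a block it was -1.21, with 0 of the 8 called in either. The block value again rests on the prefixes of conflicting labels.

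The interaction tested whether the difference between tumour and normal tissue depended on treatment. None of the 8 genes was called (0% of all genes were, by edgeR, while the DESeq2 Wald test called 222 genes and 0 of the 8). All 8 values were negative, with a median of -0.87 against -0.02 over all genes. An unadjusted p below 0.05 was seen for Insig1 (-1.05 ± 0.36, p 0.0147), Cyp51 (-1.39 ± 0.49, p 0.0162) and Sqle (-0.99 ± 0.43, p 0.0431), with adjusted p-values of 0.492, 0.493 and 0.525. Such a p with a negative value was found in 6.06% of all genes. The tumour rises of Sqle and Cyp51 under VEH and the fall of Insig1 under HDM are therefore not shown to differ between treatments. These 5 comparisons share libraries, so their values for a gene are not independent.

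Within a group, the 8 genes tended to be high or low in the same libraries. Normal HDM replicate 3 was the lowest of its group for 8 of 8 genes and tumour VEH replicate 2 for 8 of 8, while tumour HDM replicate 3 was the highest of its group for 7 and normal VEH replicate 2 for 6. The summed level of the 8 genes was 415, 536 and 380 CPM in normal VEH, 595, 641 and 383 CPM in normal HDM, 681, 423 and 759 CPM in tumour VEH and 386, 368 and 539 CPM in tumour HDM. Single genes differed between the highest and the lowest library of a group by 1.07-fold (Dhcr7, tumour HDM) to 2.48-fold (Hmgcs1, tumour VEH).

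With each group's mean removed from log2 CPM, the correlation between 2 of the 8 genes over the 12 libraries ran from 0.31 (Idi1 and Fdft1) to 0.95 (Hmgcs1 and Lss), with a median of 0.78 over the 28 pairs. These are descriptions over libraries that share depth, tissue piece and marker content, with no test. Cyp51 (0.94), Lss (0.93), Insig1 (0.93) and Hmgcs1 (0.92) were closest to the mean of the other 7, and Fdft1 (0.71) and Dhcr7 (0.71) the least close. Insig1 differed most between the 2 views, since its correlation with the other 7 was 0.51 when group means were left in.

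In normal lung the libraries with high levels of the 8 genes also had high macrophage and alveolar type 2 markers. Summed macrophage markers (7 genes) were at 249, 7870 and 330 CPM in normal VEH and 8290, 5750 and 246 CPM in normal HDM, against 439 to 724 CPM in all tumours. The genes of this sum went both ways between tissues: in tumours 2 rose and 2 fell under VEH, and 1 rose and 2 fell under HDM. Chil3, a chitinase-like protein of activated macrophages, made up most of this sum in the 3 high libraries, at 7310 CPM in normal VEH replicate 2 and 7700 and 5270 CPM in normal HDM replicates 1 and 2. These are the 3 normal libraries with the highest summed level of the 8 genes (536, 595 and 641 CPM), and the other 3 normal libraries were at 380 to 415 CPM. Each of the 3 high libraries shares its prefix with a tumour labelled HDM, and each of the other 3 with a tumour labelled VEH. The 3 high libraries had the 3 lowest mitochondrial shares of the normal libraries, at 1.96% to 2.52% of counts against 3.62% to 5.38% in the other 3. Their alveolar type 2 sums (36300 to 45900 against 16200 to 32100 CPM) and long non-coding RNA shares (6.29% to 6.45% against 5.13% to 5.43%) were the highest. Their airway (24600 to 62100 against 62500 to 113000 CPM) and endothelial sums (1030 to 2020 against 2200 to 2330 CPM) were the lowest. In tumour VEH, replicate 2 had the lowest summed level of the 8 genes (423 CPM) and the highest airway (19300 CPM) and alveolar type 2 (8740 CPM) marker sums of its group. The part of these markers and of the mitochondrial and long non-coding shares in the levels of the 8 genes was not tested.

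**Figure D3:**
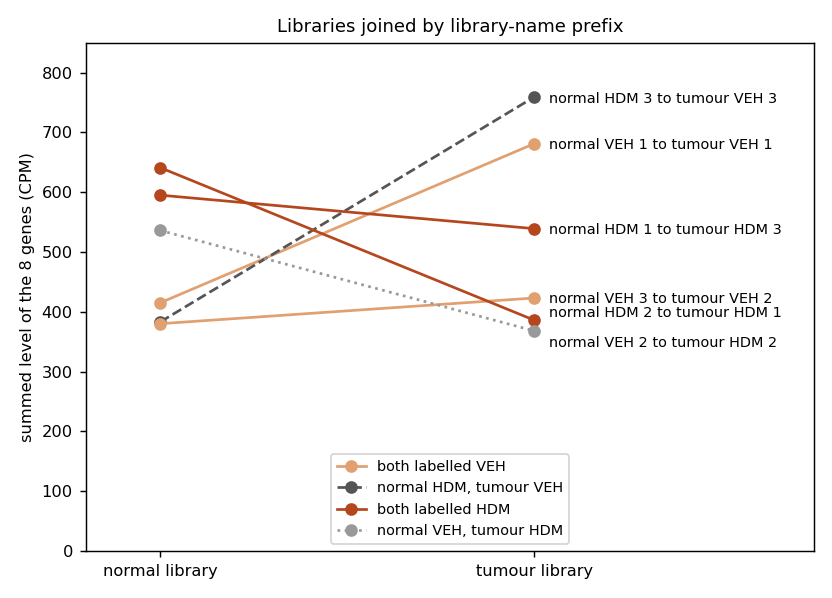
Summed level of the 8 genes in CPM (vertical axis, from 0) in the normal and tumour library of each of the 6 library-name prefixes, joined by a line; colour and line style give the treatment labels, and the text at the right names the joined libraries. The pairs with a tumour labelled VEH go up (ratios 1.11 to 1.98) and those with a tumour labelled HDM go down (0.601 to 0.906). The pairs that go down start from higher normal libraries (536 to 641 CPM) than those that go up (380 to 415 CPM).

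Joined by prefix, the summed level went from 415 to 681 CPM (replicate 1 of normal VEH to replicate 1 of tumour VEH), from 383 to 759 CPM (replicate 3 of both, labelled HDM in normal and VEH in tumour) and from 380 to 423 CPM (replicate 3 of normal VEH to replicate 2 of tumour VEH), with 8, 8 and 4 of the 8 genes higher in the tumour. For the 3 prefixes with a tumour labelled HDM it went from 595 to 539 CPM, 641 to 386 CPM and 536 to 368 CPM, with 3, 0 and 0 genes higher in the tumour. Normal libraries joined to a tumour labelled HDM were at 536 to 641 CPM. Those joined to a tumour labelled VEH were at 380 to 415 CPM. The tumour libraries overlapped by label, at 368 to 539 CPM (HDM) and 423 to 759 CPM (VEH). The direction by tumour label therefore includes a split of the normal libraries. The joined libraries differed in treatment label for 2 of the 6, and this direction by tumour label is a description with no test.

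By likeness to the mean of the 8 genes with group means removed (Pearson r over 12 libraries, among 12308 genes with an average log2 CPM of at least 3 that are not members, median r -0.04), 9 of the 10 closest genes were Msmo1 (0.953), Dnpep (0.941), Ermp1 (0.931), BC037039 (0.931), Gm31439 (0.93), Gm61009 (0.927), Gm30823 (0.921), Gm45760 (0.92) and Rab35 (0.919). Msmo1 encodes a methylsterol oxidase of the same route. With group means left in, the 10 were Msmo1 (0.928), Fdps (0.902), Mvd (0.898), Srebf2 (0.852), Sdc3 (0.844), Zfp747 (0.839), Gm48342 (0.836), Ch25h (0.822), Gm26902 (0.819) and Faf1 (0.818). Gm48342 shares exon bases with Hmgcs1 on the opposite strand, so its likeness may hold shared reads. Likewise Gm26902 shares 698 exon bases with Ch25h on the opposite strand, so reads may be shared between them. Among the pathway lists, Mvd had an r of 0.91 with group means removed (rank 14) and Fdps 0.90 (rank 21), while Ebp was at -0.46 and Srebf1 at -0.60.

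**Figure D4:**
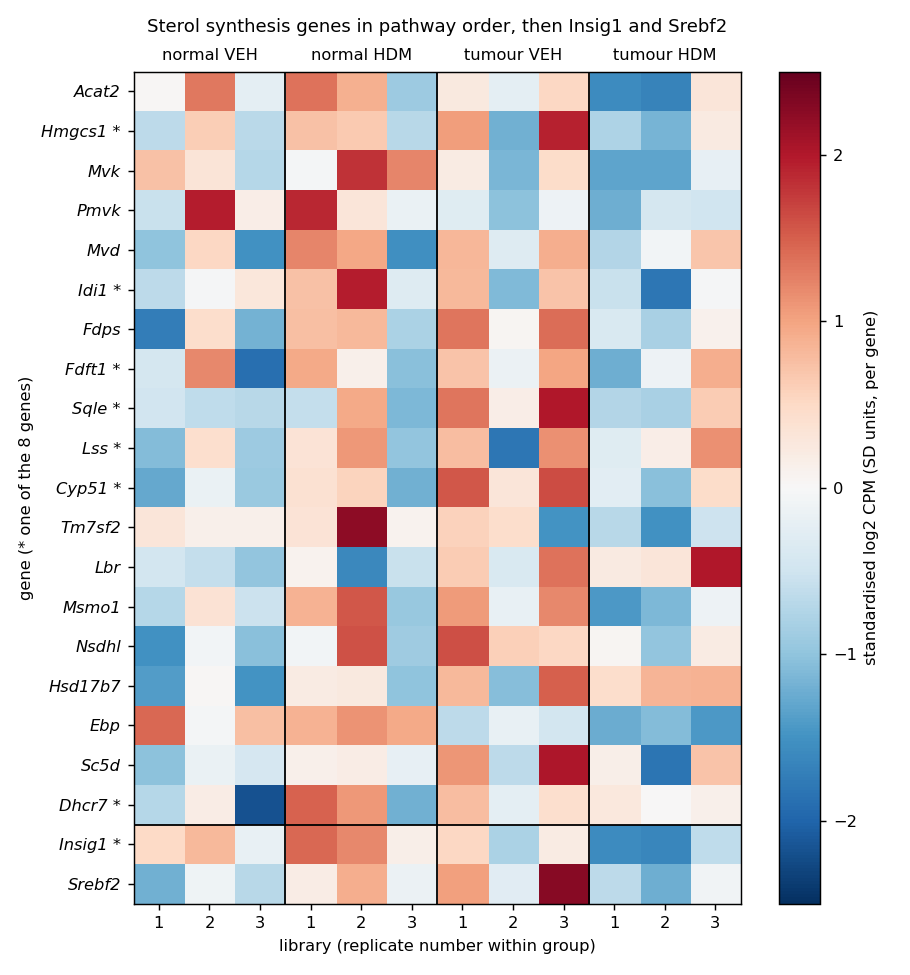
Standardised log2 CPM (colour, SD units per gene over the 12 libraries) of sterol synthesis genes in pathway order, followed by Insig1 and Srebf2; columns are libraries by group and replicate number, and asterisks mark the 8 genes. Normal HDM replicate 3 and tumour VEH replicate 2 are low in their groups for all 8 genes, and Ebp is low in all 3 tumour HDM libraries.

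The rest of the sterol route was described by a list of 14 other synthesis enzymes. Under VEH 1 rose and 1 fell in tumour, with a median log2 fold change of 0.40, where 18.2% of all genes rose and 20.6% fell. Ebp, the sterol isomerase, fell by 1.14 ± 0.28 on the log2 scale (adjusted p 0.00951, and 0.0547 without tumour VEH replicate 1). Without the 4 libraries of conflicting prefixes the list had 3 higher and 1 lower (median 0.39), and with the prefix as a block also 3 and 1 (median 0.26).

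Under HDM 0 of the 14 rose and 4 fell, with a median of -0.51, where 28.9% of all genes fell and 23% rose, so the count of falls was near the share over all genes. Ebp was at 58.7, 69.3 and 61.9 CPM in normal HDM and 15.3, 16.9 and 13.6 CPM in tumour HDM, and fell by 2.05 ± 0.29 on the log2 scale (adjusted p 0.000345). Without the 4 libraries of conflicting prefixes 0 rose and 3 fell, and with the prefix as a block 1 rose and 4 fell.

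Of 10 tested genes of cholesterol uptake and lysosomal release, 2 rose and 2 fell under VEH (median -0.10), and 1 rose and 4 fell under HDM (median -0.55). Over all genes 18.2% rose and 20.6% fell under VEH (median -0.11), and 23% and 28.9% under HDM (median -0.08). The direction of the median under VEH turned without the 4 libraries of conflicting prefixes (3 rose and 0 fell, median 0.24) and with the prefix as a block (3 and 0, median 0.20). Under HDM both gave 1 and 4. Vldlr, a receptor of triglyceride-rich lipoproteins, was at 27.2 to 31.3 CPM in normal VEH and 2.04 to 5.06 CPM in tumour VEH, with log2 fold changes of -3.08 ± 0.60 under VEH and -4.43 ± 0.64 under HDM (adjusted p 0.00339 and 0.00043). Its call under VEH was lost without the 4 libraries of conflicting prefixes (-2.94, adjusted p 0.0566) and with the prefix as a block (-2.94, 0.0562). Lrp8, the reelin receptor of the same family, was at 0.253 to 4.06 CPM in normal VEH and 8.85 to 35.6 CPM in tumour VEH, and rose by 3.92 ± 0.97 under VEH and 3.82 ± 0.97 under HDM (adjusted p 0.0106 and 0.00796). The normal VEH level of Lrp8 rests on replicate 2, and the rise was 5.69 without it.

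Of 10 genes of sterol sensing and transcription control, 4 rose and 1 fell under each treatment (medians 0.29 and 0.13). The shares over all genes were 18.2% higher and 20.6% lower under VEH, and 23% and 28.9% under HDM (medians -0.11 and -0.08). Under HDM 2 rose and 1 fell both without the 4 libraries of conflicting prefixes and with the prefix as a block, and under VEH both gave 4 and 1. The proteases that cut SREBP in the Golgi, Mbtps1 and Mbtps2, rose by 1.14 and 0.84 under VEH (edgeR adjusted p 0.0015 and 0.00554) and by 1.26 and 1.28 under HDM (0.000467 and 0.000401), in all 15 alternatives. Srebf2, which encodes SREBP2, was at 187, 239 and 209 CPM in normal VEH and 308, 229 and 407 CPM in tumour VEH. These groups overlapped, and its rise of 0.57 ± 0.20 (adjusted p 0.0463) was called in 5 of 15 alternatives. It was lost without normal VEH replicate 1 (0.49, 0.141) or 3 (0.57, 0.107), tumour VEH replicate 1 (0.69, 0.0598) or 3 (0.43, 0.113), and without the 4 libraries of conflicting prefixes (0.54, 0.0791) or with the prefix as a block (0.47, 0.117). Nr1h3, the sterol receptor LXR alpha, fell by 1.42 and 2.32 on the log2 scale (0.00261 and 0.000161), but shares exon bases with Acp2 on the opposite strand (20289 counts against 5688).

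Of 9 genes of cholesterol efflux, storage and oxidation, 0 rose and 3 fell under each treatment (medians -0.03 and -0.60). Among all genes 18.2% rose and 20.6% fell under VEH, and 23% rose and 28.9% fell under HDM (medians -0.11 and -0.08). Under VEH the median turned to 0.21, with 1 gene higher and 2 lower, both without the 4 libraries of conflicting prefixes and with the prefix as a block. Under HDM these gave 0 and 4, and 0 and 3. Abca1, the exporter of cholesterol to apolipoprotein A-I, was at 68.8, 63.6 and 53.6 CPM in normal VEH, 80.6, 74.6 and 76.7 CPM in normal HDM, 34.1, 26.6 and 32.8 CPM in tumour VEH and 68.6, 73.6 and 64.1 CPM in tumour HDM. Tumour VEH lay below every other library. Abca1 fell by 0.99 ± 0.14 on the log2 scale in tumour under VEH (edgeR adjusted p 0.00071), and under HDM its value was -0.17 ± 0.14 (adjusted p 0.316). It was the only gene of the 6 pathway lists called between HDM and VEH tumours, higher by 1.14 ± 0.14 under HDM (adjusted p 0.0274). That call was kept without tumour HDM replicate 3 and lost without tumour HDM replicate 1 (1.14, adjusted p 0.0627) or 2 (1.09, 0.14), tumour VEH replicate 1 (1.21, 0.0671), 2 (1.04, 0.0658) or 3 (1.20, 0.138), or the 4 libraries of conflicting prefixes (1.13, 0.376). It was also lost with the prefix as a block (1.11, adjusted p 0.276) and in a fit of only the compared groups (1.15, adjusted p 0.191). The block links HDM and VEH tumours only through the prefixes of conflicting labels. The interaction was 0.82 ± 0.19 (adjusted p 0.41).

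Of 14 genes of fatty acid synthesis, 1 rose and 7 fell under VEH (median -0.69) and 1 rose and 9 fell under HDM (median -1.16). Of all genes 18.2% rose and 20.6% fell under VEH, and 23% rose and 28.9% fell under HDM. Under VEH 3 rose and 6 fell without the 4 libraries of conflicting prefixes (median -0.40), and 3 and 5 with the prefix as a block (median -0.47). Under HDM these gave 1 and 11, and 1 and 10. Elovl6, a fatty acid elongase, rose by 2.20 under VEH and 2.96 under HDM (edgeR adjusted p 0.0052 and 0.000818), and Scd1, a desaturase, fell by 3.12 under HDM on the log2 scale (0.0052), from 1250 to 4740 CPM in normal HDM to 97.2 to 647 CPM in tumour HDM. The isoprenoid branch, which uses farnesyl and related diphosphates, was described by 10 genes. Of these, 2 rose and 1 fell under VEH (median 0.04) and 5 rose and 1 fell under HDM (median 0.35), beside the same shares over all genes. Without the 4 libraries these counts were 1 and 0 under VEH (median 0.10) and 3 and 0 under HDM (median 0.48), and with the prefix as a block 1 and 1 (median 0.02) and 2 and 0 (median 0.43). Rabggtb, a prenyltransferase subunit, rose by 0.92 and 1.45 (0.00597 and 0.000382). Between HDM and VEH in normal lung 0 genes of the 6 lists were called by edgeR, and the 14 other synthesis enzymes had 14 positive values (median 0.35), against 2 positive of 14 in tumours (median -0.38), where 48.4% and 46.9% of all genes were positive. With the prefix as a block the median in normal lung turned to -0.18, and that in tumours was -1.03. Both of these block values rest on the prefixes of conflicting labels.

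**Figure D5:**
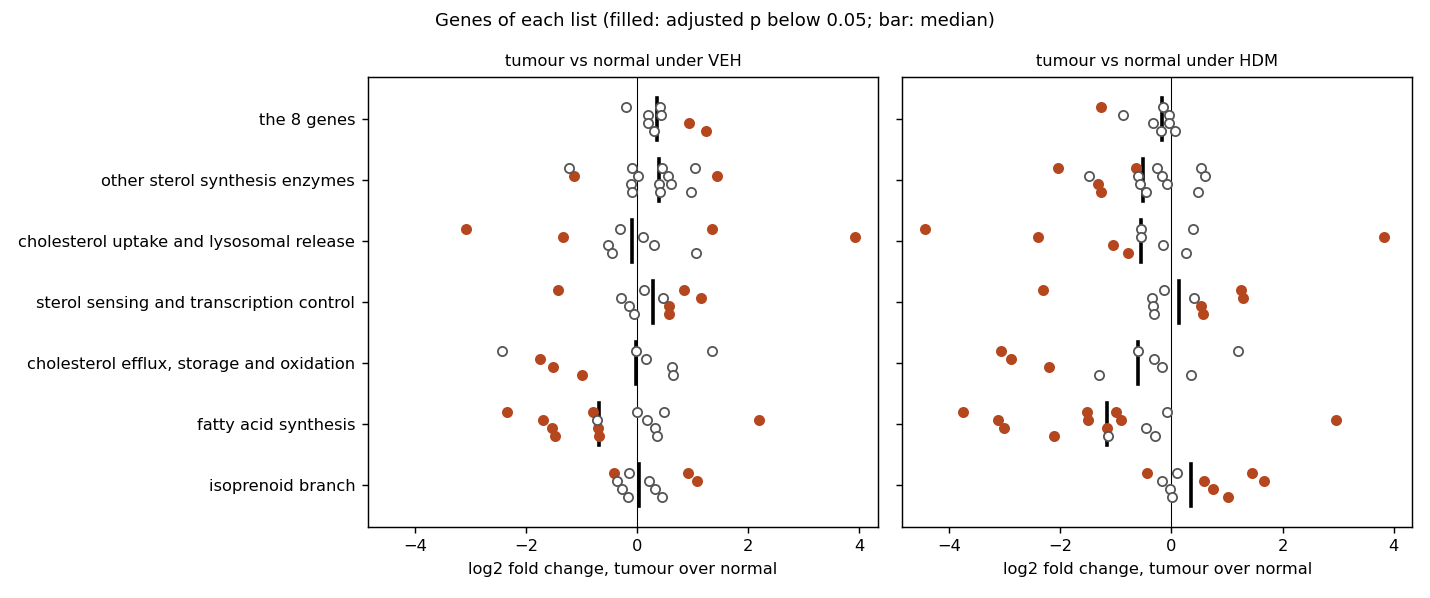
Log2 fold change of tumour over normal (horizontal axis) for the 8 genes and for each pathway list, under VEH (left) and HDM (right); each point is a gene, filled points have an adjusted p below 0.05 and bars are medians. The fatty acid list lies furthest to the left in both panels (medians -0.69 and -1.16), and the medians of the 8 genes are 0.36 and -0.17 (0.49 and 0.02 with scaling by library size alone).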

How the data were processed

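The authors' deposited table gives unnormalised read counts for Ensembl genes, 1 column for each library, beside gene lengths, per the file headers. The submitters' processing notes name Trim Galore, STAR, Subread and featureCounts and the mm39 build. Their roles, versions, the annotation and the strand setting are not given in the sources used here. Per the labels' protocols, libraries were stranded (dUTP) and paired-end, and the protocol names poly(A) selection or ribosomal depletion without choosing.

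Symbols and coordinates come from GENCODE M39 (GRCm39), which holds 78168 of the 78298 identifiers; the others carried 0.143% of counts. Counts were filtered with filterByExpr (minimum count 10) and scaled by TMM, and all 12 libraries entered a fit with a term for each group in edgeR 4.0.16 (R 4.3.3; robust quasi-likelihood F-test, two-sided, Benjamini-Hochberg over 22190 genes, threshold 0.05). Standard errors are the fold change over the square root of F. Log2 CPM used a prior count of 2.

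The members and lists were chosen with earlier results of these data known. Any member or list gene could be named, and the genes most like the members were the 10 with the highest r. Alternatives were DESeq2 1.42.0 size factors and Wald test, library size scaling, 2 other count filters, fits of only the compared groups, blocks for replicate number and for prefix, and leaving out libraries. Those for the pathway lists were chosen after seeing the data. Neither title numbers nor prefixes enter the reported fit. A few genes of these lists are counted but not reported here by name.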

Additional observations from a re-analysis of the deposited data

How the results depend on the processing

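Over 640 alternative values for the 8 genes and 5 comparisons, 590 kept their direction and side of the threshold, 11 lost a call, 5 gained one and 34 changed sign; none of the 34 was called before or after. Numbers of genes called under the alternatives stayed within 1.5 times the reported 8624 (tumour against normal, VEH), 11512 (HDM), 0 (HDM against VEH in normal tissue), 21 (in tumours) and 0 (interaction), except as follows. For HDM against VEH in tumours, library size scaling called 8 genes, no filter 52, at least 10 counts in every library 53, only the compared groups 0, the prefix block 0, and removal of the 4 libraries with conflicting prefixes 0. The DESeq2 Wald test called 1311 there, 43 in normal tissue and 222 in the interaction. That removal left 5603 calls under VEH. Leaving out each library gave 5733 to 9070 calls under VEH, 9822 to 10695 under HDM, 0 to 24 in tumours and 0 to 6 in the interaction. Members rising under VEH numbered 2, but 1 without the 4 libraries, and 0 to 3 with a library left out. Members falling under HDM numbered 1, but 2 with the Wald test or at least 10 counts in every library, and 1 to 2 with a library left out.

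With each group's mean removed, r over the genes tested ran from -0.30 to 0.16 between same-numbered normal and tumour libraries. Between libraries joined by prefix it ran from -0.22 to 0.18. These ranges are alike, so they cannot tell which numbering, if either, pairs the samples. The replicate block left 1 gene called between HDM and VEH tumours and 1 member risen under VEH, since Sqle had 0.92 (edgeR adjusted p 0.0594). It changed no other member's call. Of the pathway genes named here it ended the calls of Abca1 between HDM and VEH tumours (1.14, edgeR adjusted p 0.0563) and of Srebf2 under VEH (0.56, 0.0717).

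Values that changed sign were, for tumour against normal under HDM, Lss at -0.01 (DESeq2 size factors and Wald test) and -0.09 (at least 10 counts in every library), Sqle 0.14, Fdft1 0.14, Cyp51 0.04 and Dhcr7 0.01 (library size scaling), and Sqle 0.05 (prefix block). In tumours, HDM against VEH, Dhcr7 was 0.01 (library size scaling) and Lss -0.68 (prefix block). In normal tissue the prefix block gave Hmgcs1 -0.59, Sqle -0.44, Idi1 -0.30, Fdft1 -0.16, Lss -0.35, Cyp51 -0.41 and Insig1 -0.11. Within a tissue this block links HDM and VEH only through the prefixes of conflicting labels. With a library left out, ranges that crossed 0 were, under HDM, Fdft1 -0.06 to 0.19, Dhcr7 -0.32 to 0.01, Sqle -0.18 to 0.31, Cyp51 -0.32 to 0.15, Lss -0.04 to 0.29, and in normal tissue, Fdft1 -0.10 to 0.31, Sqle -0.12 to 0.42, and in tumours, Lss -0.25 to 0.29, Dhcr7 -0.18 to 0.01, and in the interaction, Lss -0.55 to 0.01. The cause of these changes was not tested. The prefix block also called Dhcr7 under VEH (0.68, adjusted p 0.0359), and dropped Sqle (0.82, 0.129). The lowest count behind a value of the 8 genes was 298, and groups of 3 libraries limit the precision.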
